A study of Homo sapiens with 2 samples.

Results

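The cells described here are doxorubicin-resistant SUM159 cells in which no ABCB1 transcript was counted. They are the cells of the doxorubicin-resistant attached population that had 0 ABCB1 unique molecular identifiers (UMIs, each standing for 1 captured mRNA molecule), and they numbered 814 of 7032 cells, or 11.6% (95% Clopper-Pearson interval 10.8 to 12.3%). They are called ABCB1-negative cells and are set beside the 4538 cells of the same population with more than 5 ABCB1 UMIs, called ABCB1-high cells. The remaining 1680 cells had 1 to 5 UMIs. ABCB1 itself chose the cells, so its values are a description, and every other gene is compared with ABCB1 left out of the genes and of the totals.

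SUM159 is an established triple-negative breast cancer line, labelled wild type. Attached cells were made resistant to doxorubicin, or to paclitaxel, with rising doses over a long time, for doxorubicin in short exposures followed by recovery without drug, and treatment-naïve SUM159 cells were the reference. Each of the 3 attached populations carried its own sample tag, and all were loaded on 1 cartridge and read with a targeted breast cancer panel. Spheroids of the 3 populations filled a second cartridge, and there were no replicate cultures. The attached files hold 18233 cells, 7032 of them doxorubicin-resistant, 5896 paclitaxel-resistant and 5305 treatment-naïve, whereas about 15000 cells were pooled according to the labels. The whole series holds 30122 cells. Each resistant population is a single selected culture, so differences between populations cannot be told apart from differences between cultures. No p-value is given for the same reason, and all intervals cover counting error only.

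ABCB1 encodes P-glycoprotein, an ATP-driven pump of the plasma membrane that expels many unrelated drugs, doxorubicin and paclitaxel among them. ABCG2, the breast cancer resistance protein, is a related efflux pump with an overlapping set of substrates. Raised ABCB1 is one of the best known features of cell lines selected under anthracyclines or taxanes, and single cells of such lines can differ widely in its level.

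ABCB1 lies on chromosome 7, from 87503017 to 87713295 (GRCh38.p14, RefSeq). Its UMIs were spread very unevenly over the doxorubicin-resistant attached cells. The ABCB1-high cells had a median of 24 and a maximum of 1078 UMIs and held 98.2% of all ABCB1 UMIs, and 585 cells, 8.32% of the population, held 50% of them. In treatment-naïve attached cells 63.3% had 0 ABCB1 UMIs, 1326 of 5305 had exactly 1, and 34 had more than 5. The ABCB1 level, in counts per 1000000 UMIs (CPM, for ABCB1 over all UMIs and for other genes over UMIs other than ABCB1), was 7691 CPM over all doxorubicin-resistant cells and 146 CPM in treatment-naïve cells. Paclitaxel-resistant attached cells had fewer ABCB1-negative members, 409 of 5896 or 6.94% (6.30 to 7.62%). A count of 1 to 5 UMIs was thus also common in treatment-naïve cells, at 36.1%, whereas a count above 5 was not, at 0.641%.

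**Figure D1:**
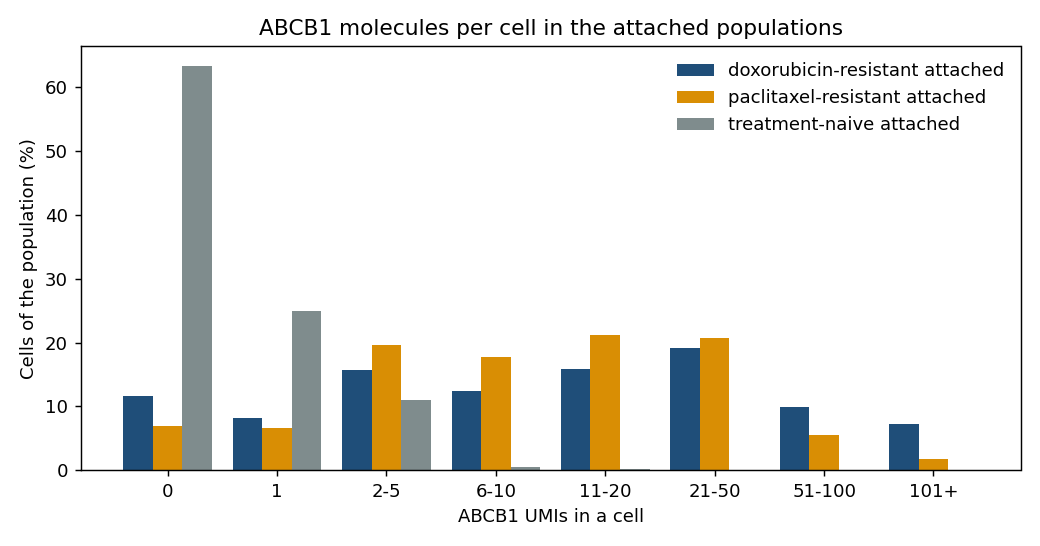
Percentage of the cells of each attached population (y axis) by the number of ABCB1 UMIs in the cell (x axis). Doxorubicin-resistant cells spread from 0 UMIs (11.6%) to more than 100 (7.31%), whereas 63.3% of the treatment-naïve cells had 0.

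Cells on either side of the limits were much alike in depth. The 578 cells with 1 ABCB1 UMI had a median of 3363.5 other UMIs, against 3342.5 in the cells with 0. The 185 cells with 5 UMIs had a median of 3550, and the 200 cells with 6 UMIs had 3423. Levels of CXCL14, a chemokine, were 193 CPM at 0 UMIs, 272 CPM at 1, 245 CPM at 5 and 449 CPM at 6. In the same order ABCG2 was at 1248, 1275, 1248 and 1286 CPM, and the keratin KRT14 at 136, 174, 174 and 226 CPM.

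The share of ABCB1-negative cells was lower in cells with more UMIs, which is what depth means here. What set the UMI total of a cell was not tested. The median ABCB1-negative cell had 3342.5 UMIs other than ABCB1, the median cell with 1 to 5 UMIs had 3460, and the median ABCB1-high cell had 3979. With the population divided by depth into 10 equal classes, 16.5% of cells were ABCB1-negative in the shallowest class (13.8 to 19.4%) and 6.12% in the deepest (4.46 to 8.15%). When every cell was thinned to 1000 UMIs, ABCB1 included, 1713 of 7032 cells, or 24.4%, had no ABCB1 UMI. A count of 0 therefore marks a low ABCB1 level at a given depth, and it does not show that a cell made no ABCB1. A median of 135 genes was detected per ABCB1-negative cell against 143 per ABCB1-high cell, but after thinning to 1000 UMIs other than ABCB1, as for all shares of cells below, both medians were 99.

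**Figure D2:**
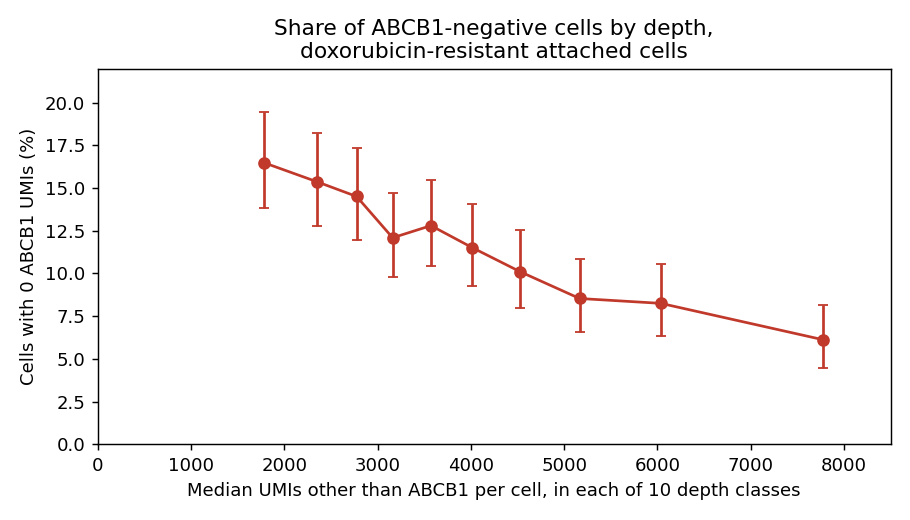
Share of cells with 0 ABCB1 UMIs (y axis, percent) in 10 equal depth classes of the doxorubicin-resistant attached cells, plotted at the median UMIs other than ABCB1 of the class (x axis). Bars are 95% Clopper-Pearson intervals, and the share was 16.5% in the shallowest class and 6.12% in the deepest.

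Apart from ABCB1, the ABCB1-negative cells differed little from the ABCB1-high cells. UMIs were summed per gene over the cells of each group and divided by the group's total, and a gene counted as measured at 50 or more UMIs in either group. The size rule asked for a CPM ratio of 2 or more in either direction and for 50 UMIs or more in the higher group. Of 245 measured genes, 0 passed as higher in ABCB1-negative cells (0%) and 5 passed as lower (2.04%). Total UMIs other than ABCB1 were 2993664 in ABCB1-negative and 19890328 in ABCB1-high cells. The minimum of 50 UMIs was therefore harder to reach for a higher gene, so the counts of 0 and 5 do not compare the directions. The ratio lay within 1.5-fold for 226 genes (92.2%), with a median log2 ratio of -0.01. Among the 135 genes with 1000 or more UMIs in the ABCB1-negative cells, 125 lay within 1.1-fold, and the log2 ratio ran from -0.23 for GPNMB, a transmembrane glycoprotein, to 0.33 for AKR1C1, an aldo-keto reductase.

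**Figure D3:**
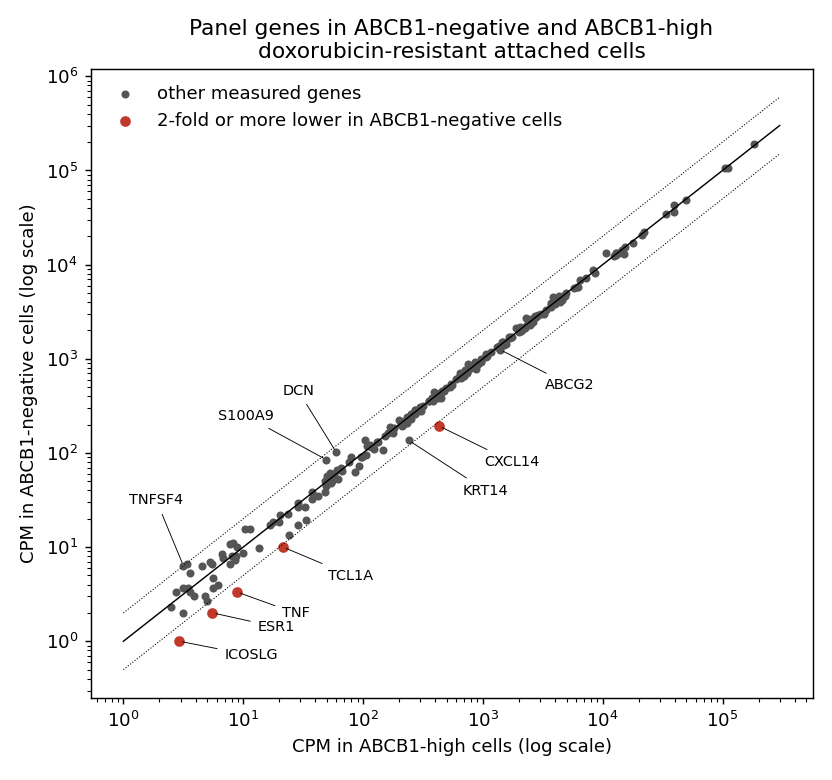
Each point is 1 of the 245 measured panel genes, with its CPM in ABCB1-negative cells (y axis, log scale) against its CPM in ABCB1-high cells (x axis, log scale); the solid line marks equal levels and the dotted lines a 2-fold difference. The 5 genes in red were 2-fold or more lower in ABCB1-negative cells, and TNFSF4 reached a ratio of 2.00 on 19 and 63 UMIs, below the minimum count.

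CXCL14, a chemokine of epithelial tissues (chromosome 5, 135570679 to 135578991), was the only gene past the size rule that rested on many UMIs. It had 578 UMIs or 193 CPM (178 to 209) in ABCB1-negative cells, against 8584 UMIs or 432 CPM (422 to 441) in ABCB1-high cells, 2.24-fold lower (2.05 to 2.44). A few cells carried much of it in both groups. The 5 cells richest in CXCL14 held 26.3% of its UMIs among ABCB1-negative cells and 27.9% among ABCB1-high cells, and the richest single cell had 50 and 724 UMIs in the same order. Such cells make the true uncertainty wider than the interval, which treats every UMI as independent. With each cell limited to 20 UMIs of a gene, an alternative chosen after seeing the data, the log2 ratio moved to -0.43, against -1.16 without the limit. The share of cells with CXCL14 differed less than the level, at 17.3% of ABCB1-negative cells and 24.97% of ABCB1-high cells, or 9.71% (7.76 to 11.9%) and 12.2% (11.2 to 13.2%) after thinning to 1000 UMIs. The thinned share in treatment-naïve cells, where the gene was nearly absent, was 0.622%.

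The other 4 genes past the size rule were scarce. TCL1A, a co-activator of the kinase AKT best known from lymphoid cells, had 30 UMIs in ABCB1-negative cells against 427 in ABCB1-high cells, 2.14-fold lower (1.48 to 3.21). It missed the size rule under 5 of 16 alternatives, with log2 ratios of -0.99 with ABCB1-high cells weighted to the depth of ABCB1-negative cells, -0.80 as the mean of each cell's CPM and -0.12 with cells of 1 to 5 ABCB1 UMIs in place of ABCB1-negative cells, against -1.10 in the comparison reported. TNF, the inflammatory cytokine, had 10 UMIs in ABCB1-negative cells against 176 in ABCB1-high cells, of which 1 cell held 31. ESR1, which encodes oestrogen receptor alpha, had 6 against 110 UMIs, and ICOSLG, the ligand of the T cell co-stimulator ICOS, had 3 against 58. The interval of ICOSLG included no difference (ratio 0.344, 0.0689 to 1.06), and at this depth a difference in it was not detectable.

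Genes lower in ABCB1-negative cells by less than 2-fold included TSLP, IL1RN and KRT14. TSLP, an epithelial cytokine, was at 19.4 CPM (14.7 to 25.05) in ABCB1-negative cells and 33.4 CPM (30.9 to 36.0) in ABCB1-high cells, 1.72-fold lower. Unlike CXCL14 it was thinly spread, with at most 3 and 14 UMIs in a cell. TSLP was counted in 6.39% of ABCB1-negative cells and 11.02% of ABCB1-high cells, or 1.72% (0.943 to 2.87%) and 3.00% (2.52 to 3.54%) after thinning, and treatment-naïve cells had more, 8.84% after thinning. IL1RN, the interleukin-1 receptor antagonist, was at 13.4 and 24.2 CPM, 1.81-fold lower (1.31 to 2.57), in ABCB1-negative and ABCB1-high cells, but after thinning the shares of cells with it were 1.35% (0.676 to 2.41%) and 1.54% (1.20 to 1.95%). KRT14, a basal keratin (chromosome 17, 41582279 to 41586895), was at 136 CPM in ABCB1-negative cells and 241 CPM in ABCB1-high cells, 1.77-fold lower (1.60 to 1.96), but the share of cells with it was 11.9% and 10.9%. A single ABCB1-high cell held 521 KRT14 UMIs, and with each cell limited to 20 UMIs the log2 ratio was 0.02.

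On the higher side, S100A9 and DCN came closest to the size rule on more than 100 UMIs. S100A9, a subunit of the inflammatory protein calprotectin, was at 84.8 CPM (74.7 to 95.9) in ABCB1-negative cells and 49.4 CPM (46.3 to 52.6) in ABCB1-high cells, a ratio of 1.72. DCN, the matrix proteoglycan decorin, was at 101.2 and 59.9 CPM, a ratio of 1.69 (1.48 to 1.92), yet was counted in 7.37% and 7.27% of cells, and 5 ABCB1-negative cells held 59.4% of that group's DCN UMIs. The pro-apoptotic p53 target BBC3 had a ratio of 1.52 (1.08 to 2.10) on 47 and 205 UMIs. CD14, a co-receptor for bacterial lipopolysaccharide, had a ratio of 1.33 (1.19 to 1.48), with 139 CPM in ABCB1-negative and 104 CPM in ABCB1-high cells.

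A few abundant genes differed by less, on many more UMIs. AKR1C1 was at 13295 CPM in ABCB1-negative cells and 10610 CPM in ABCB1-high cells, a ratio of 1.253. S100A4, a calcium-binding protein linked to cell motility, had a ratio of 1.20, and NEAT1, the long noncoding RNA of nuclear paraspeckles, had 1.19. IL6, an inflammatory cytokine, was lower at 13098 CPM in ABCB1-negative cells against 15008 CPM in ABCB1-high cells, a ratio of 0.873. S100A4, NEAT1 and IL6 were singled out after their values had been seen. The 5 cells richest in AKR1C1 held 13.5% of its UMIs among ABCB1-negative cells and 5.57% among ABCB1-high cells. AKR1C1 has near-identical copies in the genome, as has HLA-DRB1, and the assignment of reads shared with such copies is not stated in the labels or methods.

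Levels along the whole range of ABCB1 showed which of these genes changed step by step. S100A9 was at 84.8 CPM at 0 ABCB1 UMIs, 68.6 at 1 to 5, 66.5 at 6 to 20, 46.7 at 21 to 50 and 29.1 CPM above 50. NEAT1 was at 4581 CPM at 0 and 4586 CPM at 1 to 5 UMIs, and then at 4083, 3817 and 3589 CPM in the higher ranges. AKR1C1 did not fall step by step, at 13295 CPM at 0, 13450 CPM at 1 to 5 and 14910 CPM at 6 to 20 UMIs. It was at 8235 CPM at 21 to 50 and 7183 CPM above 50, so its lower level in ABCB1-high cells came from cells above 20 UMIs. TSLP ran from 19.4 CPM at 0 to 38.9 CPM above 50. CXCL14 was at 193 CPM at 0 and 346 CPM at 1 to 5 UMIs, and between 419 and 437 CPM in the 3 higher ranges. KRT14 had its highest level, 416 CPM, in the cells with 6 to 20 UMIs and its lowest, 84.5 CPM, in those above 50, so its low level in ABCB1-negative cells was not the end of a trend.

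**Figure D4:**
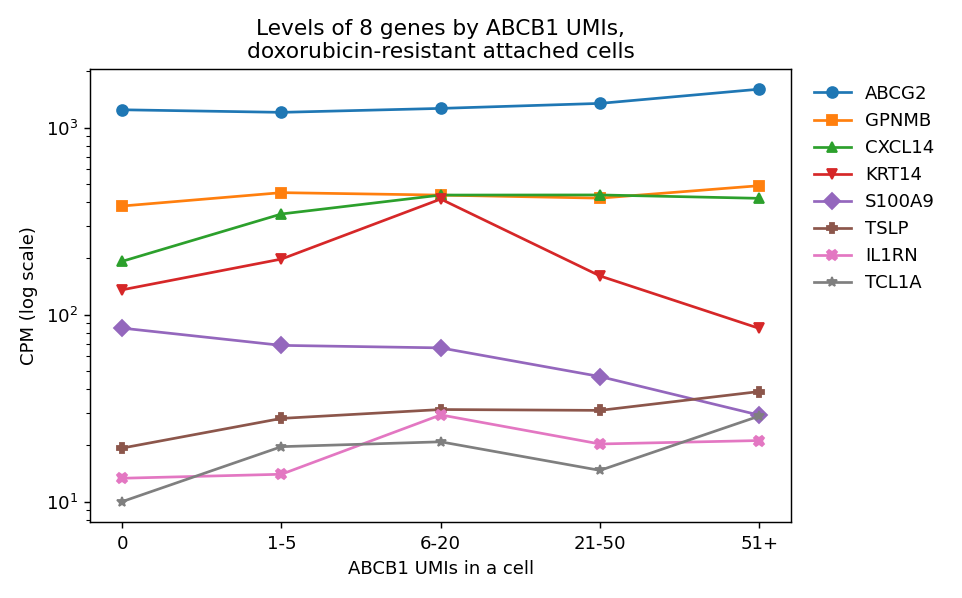
Levels of 8 genes (y axis, CPM, log scale) in doxorubicin-resistant attached cells grouped by their ABCB1 UMIs (x axis). S100A9 was lower in each range of more ABCB1, TSLP ran from 19.4 CPM at 0 to 38.9 CPM above 50, and KRT14 peaked at 6 to 20 UMIs.

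ABCG2 was counted in most ABCB1-negative cells and is the only other efflux pump of the list measured on the panel (chromosome 4, 88090264 to 88231626). ABCG2 was at 1248 CPM (1208 to 1288) in ABCB1-negative cells, 1395 CPM (1379 to 1412) in ABCB1-high cells and 126 CPM in treatment-naïve cells. Its ratio between ABCB1-negative and ABCB1-high cells was 0.894 (0.864 to 0.925), and along the ranges of ABCB1 it was at 1248, 1209, 1269, 1350 and 1608 CPM. ABCG2 was counted in 83.0% of ABCB1-negative and 90.5% of ABCB1-high cells, or in 55.3% (51.8 to 58.7%) and 63.8% (62.4 to 65.2%) after thinning to 1000 UMIs, against 10.9% of treatment-naïve cells. Of the 814 ABCB1-negative cells, 676 had an ABCG2 UMI and 138 had neither transporter counted. Those 138 were 16.6% of the 831 doxorubicin-resistant cells without ABCG2, whose median depth was 2642 UMIs, against 3956 UMIs in the cells with ABCG2. Of the cells with ABCG2 10.9% were ABCB1-negative (10.1 to 11.7%), against 12.8% of the cells without it weighted to the same depth.

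Beside treatment-naïve cells the ABCB1-negative cells lay on the same side as the ABCB1-high cells in the genes whose levels are given below. Of 255 genes measured against treatment-naïve attached cells, 50 were 2-fold or more higher in ABCB1-negative cells (19.6%) and 56 lower (22%). In ABCB1-high cells set against the same treatment-naïve cells, 64 of 265 were higher (24.2%) and 63 lower (23.8%). ABCB1-negative cells held 2993664 UMIs other than ABCB1 and ABCB1-high cells 19890328, so the minimum of 50 UMIs for a higher gene was harder to reach in ABCB1-negative cells. CD244 had a ratio of 23.5 on 23 UMIs there and did not pass, and it passed at 20.9 in ABCB1-high cells. Both comparisons share the treatment-naïve cells, so the levels are given side by side, for genes taken from earlier results of these data. Those results included the cells described here, so the direction over all doxorubicin-resistant cells was given in advance. GPNMB was at 381 CPM in ABCB1-negative, 448 CPM in ABCB1-high and 4.16 CPM in treatment-naïve cells. NCAM1, a neural adhesion molecule, was at 208, 234 and 6.07 CPM in the same order, and PDGFB, a platelet-derived growth factor chain, at 131, 130 and 9.52 CPM. Of the genes scarce in doxorubicin-resistant cells, IGFBP3, an insulin-like growth factor binding protein, was at 21.7 CPM in ABCB1-negative, 20.2 CPM in ABCB1-high and 2823 CPM in treatment-naïve cells. PTGS2, which encodes cyclooxygenase-2, was at 446, 393 and 11800 CPM, and COL3A1, a fibrillar collagen chain, at 107, 147 and 1965 CPM. S100A9 and KRT14 were far below the treatment-naïve levels of 4384 and 3611 CPM in both groups.

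**Figure D5:**
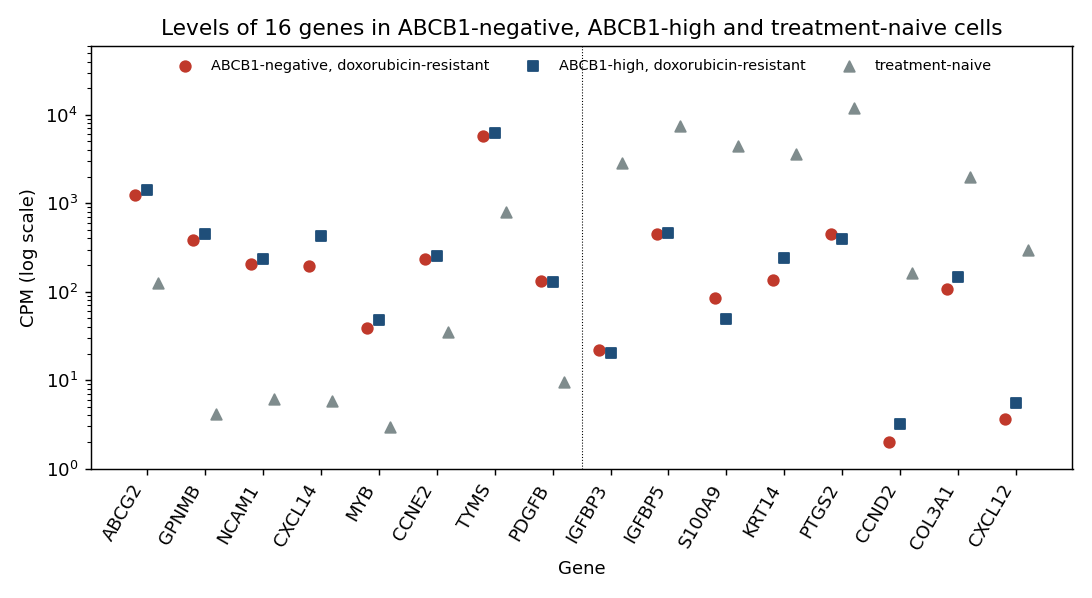
CPM (y axis, log scale) of 16 genes, chosen with earlier results of these data known, in ABCB1-negative cells (circles), ABCB1-high cells (squares) and treatment-naïve cells (triangles). In the 8 genes left of the dotted line both doxorubicin-resistant groups lay above treatment-naïve cells and in the 8 right of it below, as for GPNMB (381, 448 and 4.16 CPM) and IGFBP3 (21.7, 20.2 and 2823 CPM).

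Each cell was also assigned to the attached population whose expression profile fitted its UMIs best, with ABCB1 and ABCG2 left out. Of the ABCB1-negative cells 679 (83.4%, 80.7 to 85.9%) resembled the doxorubicin-resistant profile most, 126 (15.5%) the paclitaxel-resistant one and 9 (1.11%, 0.507 to 2.09%) the treatment-naïve one. The corresponding shares of ABCB1-high cells were 87.7%, 11.1% and 1.21%. Treatment-naïve cells resembled their own profile in 94.4% of cases. The profiles include the cells assigned, and shallower cells carry less information, so the shares describe resemblance and not origin. The 126 ABCB1-negative cells nearest to the paclitaxel-resistant profile had a median of 2876.5 UMIs and GPNMB at 385 CPM, and the 679 nearest to the doxorubicin-resistant one had 3411 UMIs and GPNMB at 381 CPM. Over all paclitaxel-resistant cells GPNMB was at 57.5 CPM. S100A9 was at 207 CPM in those 126 cells and 64.8 CPM in those 679, and among cells resembling the doxorubicin-resistant profile alone its log2 ratio between ABCB1-negative and ABCB1-high cells was 0.44, against 0.78 in all cells.

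Spheroids gave gene sets chosen on a different cartridge. Of 37 measured genes that were 2-fold or more higher in doxorubicin-resistant than in treatment-naïve spheroids, 23 were also higher in attached ABCB1-negative cells than in attached treatment-naïve cells, and 28 in ABCB1-high cells, beside 19.6% and 24.2% of all genes measured in those comparisons. Of the 32 measured genes lower in doxorubicin-resistant spheroids, 22 were lower in ABCB1-negative cells and 22 in ABCB1-high cells, beside 22% and 23.8%. Between ABCB1-negative and ABCB1-high attached cells the median log2 ratio was -0.03 for the 37 genes and -0.04 for the 32, beside -0.01 over all measured genes.

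Cell cycle genes did not separate the groups, and over all 245 measured genes only 5 (2.04%) passed the size rule. None of 14 measured genes of G1/S and DNA replication passed the size rule, with a median log2 ratio of -0.04 and a range from -0.14 for RRM2, a ribonucleotide reductase subunit, to 0.06 for DTL, a ubiquitin ligase adaptor of the replication checkpoint. None of 18 genes of G2/M and mitosis passed, with a median of -0.01, from -0.07 for CCNA1, a cyclin, to 0.09 for CDC20, an activator of the anaphase-promoting complex. Levels of these named genes also varied within the ABCB1-high cells, between those with 6 to 20 ABCB1 UMIs and those above 50. RRM2 was at 4047 and 4774 CPM, DTL at 262 and 281, CDC20 at 7701 and 8592, and CCNA1 at 24.4 and 18.9 CPM. Among 11 measured p53 targets and apoptosis genes the median was -0.02, from -0.17 for MDM2, the ubiquitin ligase of p53, to 0.61 for BBC3, and none of 8 DNA damage response genes passed.

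Genes of cell identity were likewise close to each other in level. Over all 245 measured genes 0% passed as higher and 2.04% as lower, with a median log2 ratio of -0.01. Of 26 mesenchymal and matrix genes 0 passed and the median log2 ratio was -0.01, from -0.46 for COL3A1 to 0.76 for DCN. Of 10 measured basal epithelial genes 0 passed, with a median of -0.05 and KRT14 the lowest at -0.82. Of 15 luminal genes ESR1 alone passed, as lower. CDH1 and MLPH, markers of luminal cells, had no UMI in ABCB1-negative cells and only 0.151 and 0.553 CPM in ABCB1-high cells. Stem cell markers stayed near each other, with log2 ratios of -0.07 for CD44, a hyaluronan receptor, and 0.10 for CD24, a surface sialoglycoprotein. The median of 17 inflammatory cytokine and chemokine genes was -0.13, and CXCL14 and the scarce TNF passed as lower. Of 10 interferon and antigen presentation genes the scarce ICOSLG passed as lower, and HLA-DRA, a class II chain, was at 62.5 CPM in ABCB1-negative and 85.3 CPM in ABCB1-high cells.

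Markers of blood cells were low in both groups. The summed level of 12 T and NK lymphocyte markers was 26.7 CPM in ABCB1-negative and 22.6 CPM in ABCB1-high cells. CD8A, ZAP70 and GNLY were at 0 in ABCB1-negative cells, and at 0, 0 and 0.251 CPM in ABCB1-high cells. The summed level of 6 B lymphocyte and plasma cell markers was 81.8 and 92.9 CPM in ABCB1-negative and ABCB1-high cells, and that of 8 myeloid markers, most of it CD14, was 176 and 142 CPM.

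ABCB1-negative cells occurred in every cluster of the doxorubicin-resistant attached cells, which were clustered without ABCB1. The 5 clusters held 2110, 1882, 1676, 755 and 609 cells, and 12.1%, 11.3%, 11.04%, 12.2% and 11.2% of them were ABCB1-negative. Cells outside each cluster, weighted to its depth, gave 13.1%, 10.1%, 11.3%, 12.9% and 9.83%, so no cluster's own interval left out the share expected at its depth. Cluster 2 was led by mitotic genes such as CENPA and UBE2C and cluster 3 by G1/S genes such as CCNE2 and CDC6. Cluster 5, led by KRT14 and AKR1C1, had an ABCB1 level of 3194 CPM against 7687 to 8867 CPM in the other 4 clusters. Its share of ABCB1-negative cells was 11.2% (8.78 to 13.9%), against 9.83% at its depth, which lay inside the interval.

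The share of ABCB1-negative cells was also counted among the cells carrying a gene. Of 1625 cells with a CXCL14 UMI 8.68% were ABCB1-negative (7.35 to 10.2%), against 11.5% of the other cells weighted to the same depth. Of 693 cells with TSLP 7.504% were (5.65 to 9.72%), against 10.7%, and of 355 cells with IL1RN 6.76% were (4.38 to 9.89%), against 10.7%. Of 482 cells with HLA-DRA 13.1% were ABCB1-negative (10.2 to 16.4%), against 10.4%, and this lay inside the interval. It did so as well for 272 cells with TCL1A (7.72%, 4.84 to 11.6%, against 10.6%), 873 cells with S100A9 (11.9%, 9.84 to 14.2%, against 11.05%) and 487 cells with DCN (12.3%, 9.53 to 15.6%, against 10.8%). The 154 cells with 6 or more KRT14 UMIs had 9.74% ABCB1-negative members, against 9.72% of other cells at that depth.

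The same division by ABCB1 was made in other populations. In paclitaxel-resistant attached cells 409 ABCB1-negative and 3944 ABCB1-high cells were compared over 239 measured genes, of which 0 were higher (0%) and 5 lower (2.09%). They were CCL3, CCND2, FGF18, CCNA1 and DCN. In doxorubicin-resistant spheroid cells of at least 1000 UMIs, 497 ABCB1-negative and 1383 ABCB1-high cells were compared over 230 genes, of which 1 was higher (0.435%) and 8 lower (3.48%). Here too the minimum count was harder to reach for a higher gene. ABCB1-negative and ABCB1-high cells held 1383977 and 16771685 UMIs in paclitaxel-resistant attached cells, and 1619666 and 6169693 in these spheroid cells. The higher gene, the basal keratin KRT5, had 138 of its 188 UMIs in a single ABCB1-negative cell, and CCL4, a chemokine, had 178 of its 191 UMIs in a single ABCB1-high cell. Of the 5 genes past the size rule in doxorubicin-resistant attached cells, 2 were measured in paclitaxel-resistant attached cells and 4 in doxorubicin-resistant spheroids, and 0 passed there. The ratio was below 1 for 1 of those 2 and 3 of those 4, beside 132 of all 239 and 162 of all 230 measured genes. CXCL14 had a ratio of 1.23 (0.854 to 1.73) in paclitaxel-resistant attached cells and 0.771 (0.562 to 1.04) in doxorubicin-resistant spheroids. DCN, higher in ABCB1-negative doxorubicin-resistant attached cells, was 2.17-fold lower (1.78 to 2.66) in ABCB1-negative paclitaxel-resistant cells.

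Smaller differences of ABCG2, AKR1C1 and NEAT1 had the same sign in all 3 populations, as had those of 61 of the 135 genes with 1000 or more UMIs in ABCB1-negative doxorubicin-resistant attached cells (45.2%). The ratio of ABCG2 between ABCB1-negative and ABCB1-high cells was 0.894 in doxorubicin-resistant attached cells, 0.857 (0.806 to 0.911) in paclitaxel-resistant attached cells and 0.751 (0.690 to 0.815) in doxorubicin-resistant spheroids. That of AKR1C1 was 1.253, 1.16 and 1.09 in the same order, and that of NEAT1 was 1.19, 1.26 and 1.14. S100A4, at 1.20, 0.960 and 1.07, and IL6, at 0.873, 1.0099 and 0.829, did not keep their sign. ABCB1-negative cells were the shallower group in each population, with medians of 3129 UMIs against 3938 in paclitaxel-resistant attached cells and 2753 against 4151 in doxorubicin-resistant spheroids, and the part of depth in these ratios was not tested in those 2 populations. In doxorubicin-resistant attached cells, with ABCB1-high cells weighted to the depth of ABCB1-negative cells, the log2 ratio of ABCG2 was -0.16, as without weighting, and that of AKR1C1 was 0.56, against 0.33 without it.

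CAV1, which encodes the caveolae protein caveolin 1 and lies within 30 Mb of ABCB1 on chromosome 7, was at a close level in both groups, with 16887 CPM in ABCB1-negative cells and 17927 CPM in ABCB1-high cells, a log2 ratio of -0.09.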

How the data were processed

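Targeted RNA was counted in single SUM159 cells on the BD Rhapsody platform, with 1 cartridge for attached cells and 1 for spheroids. The authors deposited counts for each population, which are UMIs per panel gene and cell adjusted with RSEC, the error correction of the platform's pipeline, against the hg38 build named in the submitters' processing notes. The files list 373 gene symbols, 331 of them in the doxorubicin-resistant attached file. The study removed cells of low counts before its clustering, with limits its methods leave out. That filter was not applied here, and all deposited cells were used. The population of each file was taken from its name, because the labels give the sample tags of a cartridge but not the file of each tag. Attached populations had 21423102 to 29451390 UMIs in all. The barcode files hold cell numbers, none shared among the attached populations and 264 shared between attached and spheroid files, 8 of them belonging to ABCB1-negative cells. No doublet caller was run, and the deepest 5% of cells were left out in an alternative.

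CPM is the summed UMIs of a gene over all UMIs of the group other than ABCB1, multiplied by 1000000, and for ABCB1 itself over all UMIs. Ratios carry the exact conditional binomial 95% interval and shares the exact Clopper-Pearson interval. UMIs within a cell are not independent, so intervals are too narrow for genes concentrated in few cells. No test was run, because both groups are cells of the same population and no population was replicated. A gene passed at a 2-fold ratio with at least 50 UMIs in the higher group, and 3 UMIs stood in for a count of 0. Thinning drew 1000 UMIs other than ABCB1 from each cell without replacement (all UMIs for the share of ABCB1-negative cells), and left out 1 shallower ABCB1-high cell. Shares at the same depth weight the other cells over 10 equal depth classes. Resemblance is the highest multinomial likelihood under the 3 attached profiles, with 0.5 UMI added per gene. Clusters come from 20 principal components, 15 neighbours and Leiden resolution 0.5 (leidenalg 0.10.2, scikit-learn 1.9.0, numpy 2.4.6, scipy 1.17.1).

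Genes were named by rule: the 15 largest ratios each way, the 2 highest and 2 lowest members of each of 23 gene lists, ABCG2, the 5 largest each way in the other 2 populations divided by ABCB1, and panel genes within 30 Mb of ABCB1. A gene that the rule names is not reported here. The cells, the rule and the lists were chosen with earlier results of these data known, and genes named outside the rule were chosen after their values were seen. Alternatives were other scalings, depth weighting, thinning, depth limits, other comparison cells and other size rules. Weighting to cluster makeup and a limit of 20 UMIs per cell were added after seeing the data.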

Additional observations from a re-analysis of the deposited data

How the results depend on the processing

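The share of ABCB1-negative cells was 24.4% when every cell was thinned to 1000 UMIs, against 11.6% as deposited, and 11.1% among cells of at least 2000 UMIs. The share of them resembling the doxorubicin-resistant profile was 84.2% without the 10 most abundant genes. The count of lower genes, 5 in the comparison reported, was 10 without scaling to depth, which shifted the median log2 ratio to -0.27, 3 among cells resembling the doxorubicin-resistant profile, 2 when cells with 1 to 5 ABCB1 UMIs took the place of the ABCB1-negative cells, 14 at a 1.5-fold ratio and 10 with no minimum count. The count of higher genes was 2 at a 1.5-fold ratio and 15 with no minimum count, and 0 under all the other alternatives run. Of 16 alternatives, ESR1 and TNF passed as lower in 14 each, ICOSLG in 12 and TCL1A in 11. CXCL14 passed under every alternative except the cells with 1 to 5 UMIs and the limit of 20 UMIs per cell. With cells of 1 to 5 UMIs the log2 ratios turned positive for ESR1 (0.12), ICOSLG (0.18) and TNF (0.14), and with thinning that of ICOSLG did (0.019). The causes were not tested. In the comparison reported these genes had 10 or fewer UMIs in ABCB1-negative cells, a group that the cells of 1 to 5 UMIs replaced. No paired analysis was possible because ABCB1-negative and ABCB1-high cells come from the same unreplicated population and the labels give no shared replicate numbers. Without replicate cultures none of the differences can be set against culture-to-culture spread, and genes under about 50 UMIs in ABCB1-negative cells have wide intervals.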

Other observations

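Cells with 1 to 5 ABCB1 UMIs resembled the doxorubicin-resistant profile most in 83.0% of cases (81.2 to 84.8%), close to the 83.4% of ABCB1-negative cells, and had ABCG2 at 1209 CPM and AKR1C1 at 13450 CPM. CXCL14 was at 346 CPM in them, above its 193 CPM in ABCB1-negative cells.

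HLA-DRA, a class II chain, was at 62.5 CPM in ABCB1-negative, 85.3 CPM in ABCB1-high and 13.4 CPM in treatment-naïve attached cells. TCL1A was at 10.02 CPM in ABCB1-negative and 21.5 CPM in ABCB1-high cells, against 0.187 CPM or 4 UMIs in treatment-naïve cells. In doxorubicin-resistant spheroids TCL1A was at 63.6 CPM in ABCB1-negative and 81.9 CPM in ABCB1-high cells.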
